A study of Mus musculus with 24 samples.

Results

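The phagocyte NADPH oxidase was followed through 6 of its genes in bone marrow-derived macrophages of wild-type and Ninj1 knockout mice, unstimulated and stimulated with a synthetic lipopeptide. The genes are Cybb, Cyba, Ncf1, Ncf4, Rac1 and Rac2. They were chosen by symbol from the 52636 gene models of the deposited tables, and each symbol fell on 1 model. All 6 passed the filter on low counts that left 14435 genes for testing.

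The phagocyte NADPH oxidase moves electrons from cytosolic NADPH across the membrane to oxygen and so makes superoxide, the first product of the respiratory burst. Its membrane core is cytochrome b558, a pair of gp91phox (Cybb), which carries the electron path, and p22phox (Cyba), which stabilises it. In resting cells the organiser p47phox (Ncf1) and p40phox (Ncf4), which binds a phagosomal phosphoinositide, wait in the cytosol. On activation p47phox is phosphorylated, the complex moves to the membrane and a GTP-loaded Rac protein (Rac1 or Rac2) joins it. Loss of the core or of the cytosolic phox proteins is known as the cause of chronic granulomatous disease.

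The 24 libraries of polyA RNA fell into 4 groups of 6: wild-type C57BL/6 cells in media only (WT_media), cells of mice with a Ninj1 knockout in media only (KO_media), and the same 2 genotypes stimulated with Pam3 (WT_Pam3 and KO_Pam3). Ninj1 encodes a membrane protein of plasma membrane rupture, and Pam3 is the usual short name of Pam3CSK4, a synthetic ligand of the TLR1/TLR2 receptor pair. The dose and duration of Pam3, the age of the mice and the extent of the deletion are not stated in the labels. Nothing in the labels tells separate animals or cultures from repeat samples, so each p-value reflects the spread among these libraries, part or all of which may be technical.

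Reads assigned to gene models came to 31302011 to 40663152 per library, and CPM (counts per 1e6 reads) below are those counts scaled to each library's TMM-adjusted total. Ninj1 separated the genotypes without overlap at both treatments, at 167 ± 9.68 CPM in KO and 307 ± 15.7 CPM in WT (mean ± SD, n = 6) in media and at 429 ± 25.7 and 810 ± 176 CPM after Pam3. Xist was present in each library and the Y-linked genes were near 0, although the labels give WT as male and KO as NA. Between genotypes Xist was not called by the edgeR test, with adjusted p = 0.554 in media and 0.875 after Pam3. Sex bears on Cybb because that gene is X-linked. The 8 macrophage markers summed to between 25894 and 34419 CPM in every library. The 12 granulocyte markers summed to 217 to 665 CPM, most of it Csf3r, and the neutrophil marker Ly6g was at 0 counts in 16 libraries. One library stood apart: in WT_Pam3 replicate 5 short genes read high and long genes low, and its values are given with and without it where a subunit result rests on it.

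The members lie on 4 chromosomes of GRCm38, in GENCODE M21 coordinates. Cybb is at chrX:9435252-9487771, Cyba at chr8:122424776-122432930, Ncf1 at chr5:134220053-134229625 and Rac1 at chr5:143503634-143528036, all on the minus strand. Ncf4 at chr15:78244801-78262580 on the plus strand and Rac2 at chr15:78559167-78572783 on the minus strand are neighbours 297 kb apart. Cybb, Rac2 and Ncf4 overlapped no other gene model, whereas Rac1 and Ncf1 shared exon bases with a gene of the opposite strand, which matters for counts made without strand.

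RefSeq promoter windows (GRCm38.p6, 250 bases before to 50 after the annotated start) were at hand for 3 of the 6 members. They are shown because these genes rose together after Pam3 while differing in size of response, and because the Cybb promoter is a textbook target of PU.1 and interferon regulatory factors. Capitals mark matches, on either strand, to GAGGAA, a PU.1 box, and to GAAA, any 2 bases and GAAA, the repeat bound by interferon regulatory factors. The Cybb window, chrX:9469275-9469574 on the minus strand, starts from a RefSeq start that lies inside the longer GENCODE gene, and the other 2 are chr5:134229576-134229875 and chr8:122432891-122433190, also on the minus strand.
Cybb: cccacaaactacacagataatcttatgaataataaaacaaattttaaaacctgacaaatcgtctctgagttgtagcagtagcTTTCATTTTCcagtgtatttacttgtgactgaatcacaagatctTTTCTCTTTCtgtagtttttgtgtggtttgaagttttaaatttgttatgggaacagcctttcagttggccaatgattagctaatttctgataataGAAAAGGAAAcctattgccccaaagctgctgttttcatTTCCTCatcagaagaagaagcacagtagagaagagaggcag
Ncf1: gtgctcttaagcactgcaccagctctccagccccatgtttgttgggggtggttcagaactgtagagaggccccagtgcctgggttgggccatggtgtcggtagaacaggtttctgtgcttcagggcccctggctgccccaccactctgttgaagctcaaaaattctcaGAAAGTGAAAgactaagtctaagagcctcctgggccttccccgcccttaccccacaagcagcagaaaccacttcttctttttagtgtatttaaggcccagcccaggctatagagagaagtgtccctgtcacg
Cyba: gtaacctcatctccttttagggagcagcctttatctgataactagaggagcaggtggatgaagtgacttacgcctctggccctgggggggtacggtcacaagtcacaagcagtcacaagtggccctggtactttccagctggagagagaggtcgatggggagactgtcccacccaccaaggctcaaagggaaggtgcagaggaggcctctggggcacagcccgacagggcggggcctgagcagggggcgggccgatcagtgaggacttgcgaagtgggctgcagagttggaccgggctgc

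The Cybb window held 3 matches to the GAAA repeat, starting at -168, -124 and -29 from the start site, and 1 match to GAGGAA at position 10 after it, read on the opposite strand. Ncf1 held 1 match to the GAAA repeat at -82, and Cyba held neither motif. No overlap occurred between the marked matches. Of all 32851 RefSeq promoter windows of that length, 3.44% held the GAAA repeat and 28.3% held GAGGAA. The NF-kB-type sequence GGGA, any base and TTTCC, searched on both strands, which 0.411% of all windows held, was in none of the 3 windows. G and C made up 35.3% of the Cybb window, 54.0% of that of Ncf1 and 60.7% of that of Cyba. These are matches of letters, with no measure of binding.

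All 6 subunit genes rose after Pam3 in both genotypes, and in each case every Pam3 library lay above every media library. The size of the rise differed between members: Rac2 and Cybb rose 5.59-fold and 5.56-fold in WT and Ncf4 rose 4.37-fold. Ncf1 rose 2.09-fold, Cyba 1.76-fold and Rac1 1.19-fold. In KO the order was the same with all libraries. There the rise was 5.17-fold for Rac2, 5.08-fold for Cybb, 3.82-fold for Ncf4, 2.01-fold for Ncf1, 1.51-fold for Cyba and 1.19-fold for Rac1. Which of Rac2 and Cybb led in WT rests on WT_Pam3 replicate 5. Without that library the log2 fold change in WT was 2.57 for Cybb and 2.43 for Rac2, so Cybb led. In KO the same fit gave 2.35 for Cybb and 2.37 for Rac2. Of all genes tested by edgeR's quasi-likelihood test, 40.6% were called higher in WT and 40.2% in KO at a Benjamini-Hochberg adjusted p under 0.05, and 32.5% and 36% had all Pam3 libraries above all media libraries. Pam3 moved most genes, so 6 of 6 is read against a background of that size. The median log2 fold change of the 6 was 1.60 in WT and 1.47 in KO, where that of all genes was -0.05 and -0.07.

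The scale of these changes rests on how libraries are scaled to one another. TMM scaling factors, which keep the bulk of genes near no change, were 1.17 to 1.20 in media libraries and 0.81 to 0.86 in Pam3 libraries. With the library totals alone the median of all genes moved to -0.58 in WT and -0.56 in KO, and the split of all called genes moved from 5859 higher and 6376 lower to 3584 higher and 9055 lower in WT, and from 5803 and 6470 to 3685 and 8935 in KO. On that scale 5 members were called higher and 1 lower in WT (background 24.8% higher and 62.7% lower), and 4 higher and 1 lower in KO (background 25.5% and 61.9%). Rac1 was the member called lower, and Cyba in KO was the one no longer called. In bulk RNA fewer cells of a type and less RNA per cell cannot be told apart.

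**Figure D1:**
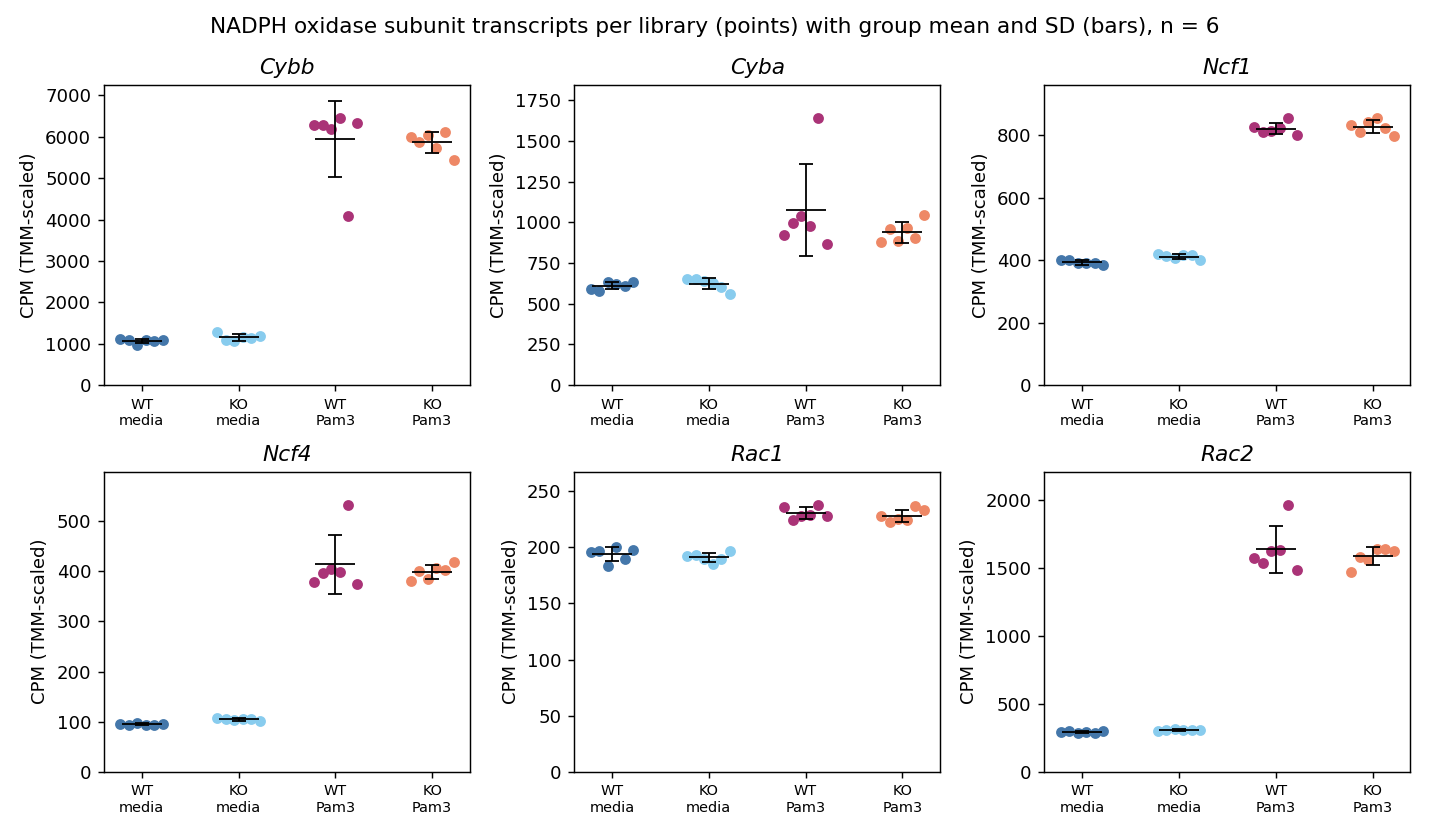
CPM of the 6 subunit genes in each of the 24 libraries (points; y axes start at 0, CPM scaled by TMM) by group, with the group mean and SD (black bars, n = 6). Pam3 libraries lie above media libraries in every panel, and in WT_Pam3 the library low for Cybb (4075 CPM) is the one high for Cyba (1640 CPM).

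In the membrane core, Cybb stood at 976 to 1102 CPM with a median of 1090 in WT_media and at 1061 to 1288 CPM with a median of 1143 in KO_media. After Pam3 it ranged from 4075 to 6448 CPM with a median of 6288 in WT and from 5437 to 6106 CPM with a median of 5936 in KO. The ranges of the genotypes overlapped within each treatment, and no media library came near a Pam3 library. The log2 fold change with Pam3 was 2.48 in WT (SE 0.0798, edgeR adjusted p = 7.44e-21) and 2.35 in KO (SE 0.0794, edgeR adjusted p = 2.24e-20). With 39415 to 198829 reads per library, Cybb was the most deeply counted member.

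Cyba, the partner that Cybb needs for a stable heterodimer, moved less. It stood at 579 to 636 CPM (median 615) in WT_media and 561 to 652 CPM (median 634) in KO_media. After Pam3 it stood at 870 to 1640 CPM (median 988) in WT and 879 to 1045 CPM (median 932) in KO. The high end in WT was again a single library, since the other 5 lay between 870 and 1040 CPM. The log2 fold change was 0.81 in WT (SE 0.0983, edgeR adjusted p = 2.03e-08) and 0.59 in KO (SE 0.0981, edgeR adjusted p = 3.74e-06). Without WT_Pam3 replicate 5 it was 0.65 in WT (SE 0.0463, edgeR adjusted p = 3.02e-14) and 0.60 in KO (SE 0.0444, edgeR adjusted p = 1.07e-13). With library totals alone it was 0.29 in WT (edgeR adjusted p = 0.00693) and 0.11 in KO (edgeR adjusted p = 0.285), so the call in KO depends on the scaling.

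Among the cytosolic phox subunits, Ncf1 varied little between libraries of a group. It stood at 383 to 401 CPM (median 390) in WT_media, 400 to 418 (median 413) in KO_media, 802 to 854 (median 817) in WT_Pam3 and 797 to 854 (median 829) in KO_Pam3. The genotypes overlapped at both treatments. The log2 fold change with Pam3 was 1.07 in WT (SE 0.0283, edgeR adjusted p = 9.36e-23) and 1.01 in KO (SE 0.0283, edgeR adjusted p = 3.18e-22). Exons of Ncf1 share 408 bases, 11.1% of its exon length, with Gtf2ird2 on the other strand, a gene with 5102 reads over all libraries against 506665 for Ncf1.

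Ncf4 was the lowest of the 4 phox genes among the members per length at rest. By reads it stood at 92.6 to 97.9 CPM (median 94.6) in WT_media and 101 to 108 CPM (median 105) in KO_media, so that all KO libraries lay above all WT libraries. After Pam3 it stood at 374 to 532 CPM (median 398) in WT and 380 to 419 CPM (median 402) in KO, with overlapping ranges. The log2 fold change with Pam3 was 2.13 in WT (SE 0.0599, edgeR adjusted p = 3.34e-22) and 1.93 in KO (SE 0.0595, edgeR adjusted p = 2.54e-21). Ncf4 thus rose more than Ncf1, its partner in the cytosolic complex, with 95% intervals in WT of 2.01 to 2.25 for Ncf4 and 1.01 to 1.12 for Ncf1.

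The 2 Rac genes parted. Rac2, the Rac of blood cells, stood at 284 to 303 CPM (median 291) in WT_media and 298 to 314 CPM (median 307) in KO_media, and at 1484 to 1964 CPM (median 1600) in WT_Pam3 and 1471 to 1640 CPM (median 1604) in KO_Pam3. Rac1, the Rac found in nearly all tissues, stood at 183 to 200 CPM (median 196) in WT_media, 185 to 197 (median 191) in KO_media, 224 to 238 (median 229) in WT_Pam3 and 223 to 236 (median 227) in KO_Pam3. Over all 24 libraries Rac1 spanned 183 to 238 CPM. The log2 fold change of Rac2 was 2.48 in WT (SE 0.0503, edgeR adjusted p = 1.83e-25) and 2.37 in KO (SE 0.0501, edgeR adjusted p = 4.62e-25). That of Rac1 was 0.25 in WT (SE 0.0300, edgeR adjusted p = 1.95e-08) and 0.26 in KO (SE 0.0300, edgeR adjusted p = 1.16e-08), and with library totals alone it turned to -0.27 (edgeR adjusted p = 2.35e-09) and -0.23 (edgeR adjusted p = 6.76e-08). The direction of Rac1 is therefore set by the scaling, and that of Rac2 is not.

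Rac1 and Rac2 encode near-identical GTPases, and whether 50-base reads can tell them apart was checked on the annotated coding sequences. Both are 579 bases long and are identical at 77.0% of positions, with 133 differences and a longest identical run of 29 bases.

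No 50-base stretch of the annotated transcripts was common to the 2 Rac genes. Over all transcripts of each member, the share of 50-base stretches also present in another gene, on either strand, was 0 for Cybb and Ncf4, 1.29% for Rac2, 2.39% for Cyba, 7.45% for Ncf1 and 50.3% for Rac1. The Rac1 share was all with Daglb, a diacylglycerol lipase on the other strand, whose exons overlap 2309 of the 4496 exon bases of Rac1. The kit does not mark strand, so reads from that stretch cannot be told apart. Daglb fell with Pam3 by 4.37 on the log2 scale in WT (edgeR adjusted p = 4.50e-31), where 241 ± 9.94 CPM became 11.6 ± 0.544. It fell by 4.50 in KO (edgeR adjusted p = 3.62e-31), where 224 ± 5.32 CPM became 9.88 ± 0.750. How many reads of either gene came from the other was not tested.

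**Figure D2:**
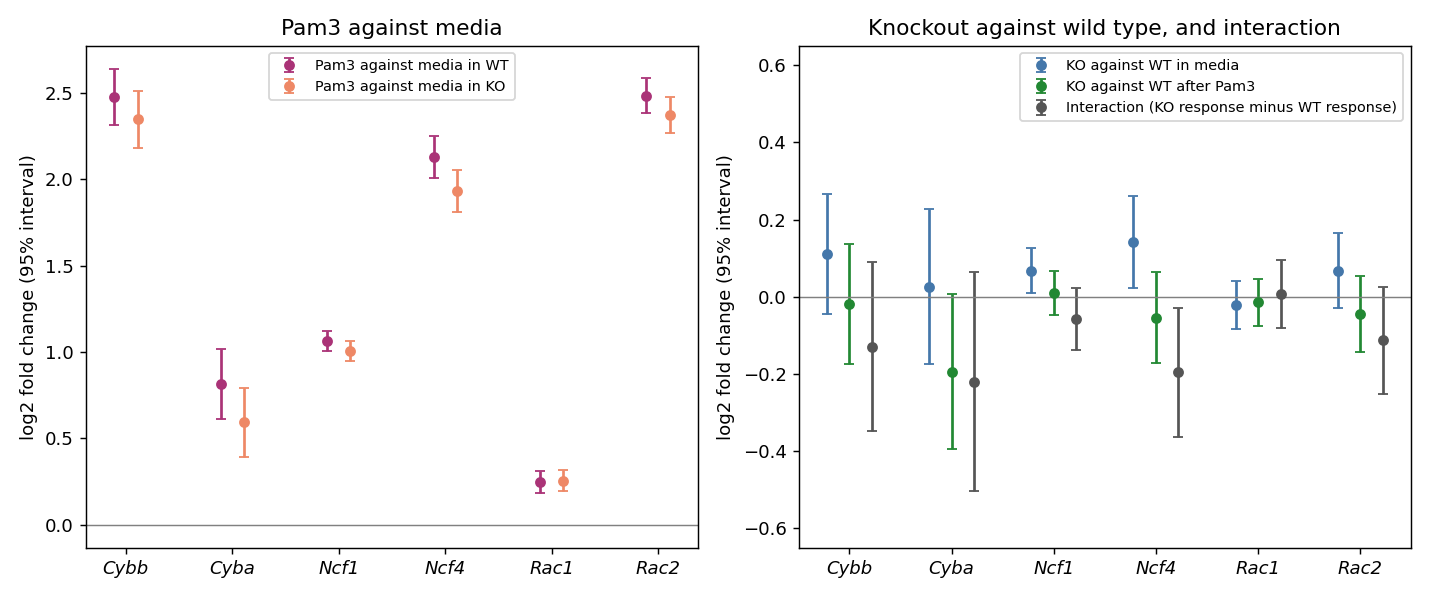
Log2 fold changes of the 6 subunit genes with 95% intervals, for Pam3 against media in each genotype (left) and for knockout against wild type and the interaction (right, a narrower scale). Rac2 and Cybb lie near 2.4 on the left and Rac1 near 0.25, and on the right the estimates run from -0.22 to 0.14.

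Levels can be compared between genes only per length, for which the deposited RPKM were used. In WT_media the order was Cyba (732 ± 29.7 RPKM), Cybb (200.2 ± 10.2), Ncf1 (121 ± 2.06), Rac2 (85.8 ± 2.79), Ncf4 (57.6 ± 1.21) and Rac1 (41.0 ± 1.59), and KO_media had the same order. No neighbours in that order had overlapping ranges in either media group. After Pam3 the order in WT was Cyba (1311 ± 341 RPKM), Cybb (1135 ± 178), Rac2 (490 ± 49.5), Ncf1 (259 ± 5.30), Ncf4 (257 ± 35.7) and Rac1 (49.7 ± 1.05), and the order in KO was the same. Cyba and Cybb overlapped in range in both Pam3 groups, and so did Ncf1 and Ncf4. The order in WT_Pam3 turned without replicate 5, a check added after seeing the data: over the other 5 libraries Cybb stood at 1208 ± 18.8 RPKM and Cyba at 1175 ± 82.7, still with overlap, and Ncf1 (252.5 to 260.9 RPKM) lay just above Ncf4 (232.1 to 251.9 RPKM). Rac2 thus passed Ncf1 in both genotypes, with and without that library.

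The lengths behind the RPKM are not stated, and those they imply differ from exon lengths in GENCODE M21. With CPM per kilobase of GENCODE M21 exons, an alternative chosen after seeing the data, the orders were the same in WT_media, KO_media and WT_Pam3. In KO_Pam3 Cybb (1010 ± 43.1 CPM per kilobase) then stood before Cyba (904 ± 61.0), with overlapping ranges, and Ncf1 and Ncf4 no longer overlapped. The Rac1 length includes the stretch shared with Daglb.

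The ratio of the 2 core subunits changed with Pam3. In RPKM, Cyba over Cybb was 3.39 to 4.16 in WT_media (median 3.67) and 2.997 to 3.84 in KO_media (median 3.45). After Pam3 it was 0.876 to 2.57 in WT (median 0.991) and 0.933 to 1.23 in KO (median 0.994). The value of 2.57 was WT_Pam3 replicate 5, and the other 5 libraries reached at most 1.07. By the deposited RPKM the 2 transcripts were thus about level in the median Pam3 library of either genotype. With CPM per kilobase of GENCODE M21 exons the Cyba medians, 951 in WT_Pam3 and 897 in KO_Pam3, lay under those of Cybb, 1083 and 1022.

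Within the cytosolic subunits the RPKM of Ncf4 over Ncf1 had medians of 0.474 in WT_media, 0.498 in KO_media, 0.959 in WT_Pam3 and 0.9501 in KO_Pam3. Rac2 over Rac1 had medians of 2.10, 2.23, 9.70 and 9.67 in the same order, and no media library overlapped a Pam3 library in either ratio. Rac2 over Cybb had medians of 0.427, 0.421, 0.395 and 0.421, and its ranges overlapped between media and Pam3. Ncf1 over Cybb had medians of 0.603, 0.600, 0.214 and 0.229, lower in every Pam3 library than in every media library. The RPKM summed over the 6 genes was 1238 ± 29.9 in WT_media, 1279 ± 45.5 in KO_media, 3502 ± 260 in WT_Pam3 and 3295 ± 59.2 in KO_Pam3. Cyba supplied 59.1 ± 1.35% of that sum in WT_media and 37.1 ± 6.39% in WT_Pam3, and Cybb 16.2 ± 0.827% and 32.8 ± 6.69%. Without WT_Pam3 replicate 5 the shares in WT_Pam3 were 34.5 ± 1.46% for Cyba and 35.5 ± 1.25% for Cybb (SD, n = 5), so which of them was larger rests on that library.

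**Figure D3:**
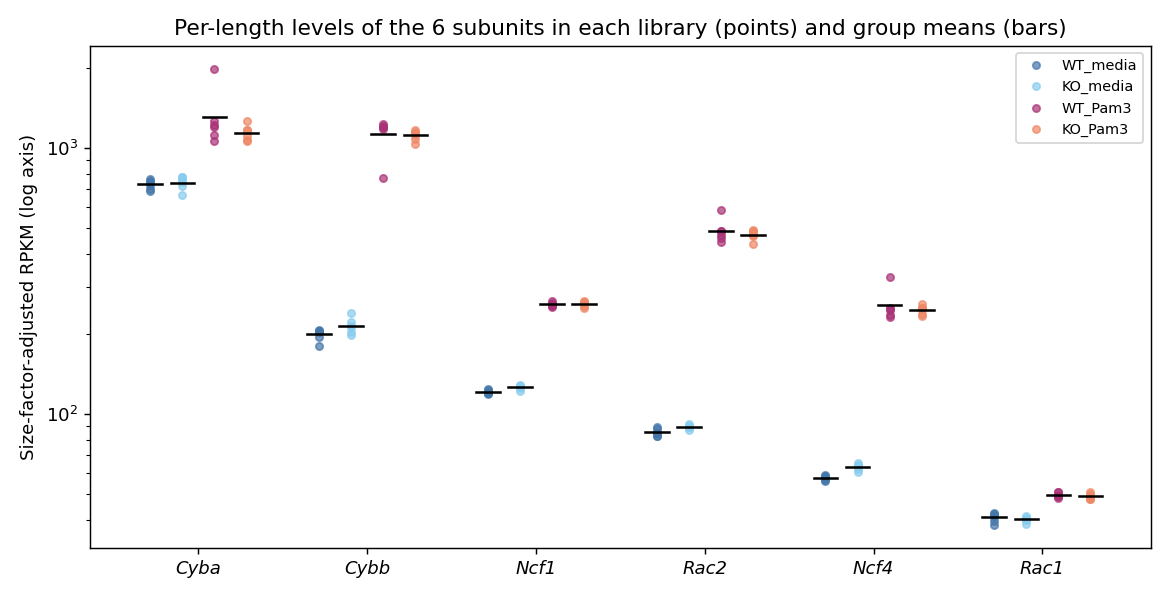
Size-factor-adjusted RPKM of the 6 subunit genes on a log axis, 1 point per library and a black bar at each group mean (n = 6). Cyba leads in media at 732 RPKM in WT, Cybb overlaps it in RPKM after Pam3, and Rac1 stays lowest in all 4 groups.

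Whether loss of Ninj1 changes the oxidase genes is the question of the genotype comparisons, and none of the 6 passed the edgeR test at either treatment. In media 0 of 6 were called, where 3.03% of all genes were, with 2 members at an unadjusted p under 0.05, which 13% of all genes had, and 1 called by DESeq2. After Pam3 0 of 6 were called, where 4.06% of all genes were, with 0 at an unadjusted p under 0.05, which 16.3% of all genes had, and 0 by DESeq2. With library totals alone the split of all genes called after Pam3 moved from 189 higher and 397 lower to 412 and 220. It was 352 and 826 without WT_Pam3 replicate 5, and 63 and 114 with the 12 libraries of the comparison alone.

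In media the estimate was above 0 for 5 members and -0.02 for Rac1 (95% interval -0.08 to 0.04). For Ncf4, whose 6 KO libraries (101 to 108 CPM) all lay above the 6 WT libraries (92.6 to 97.9 CPM), it was 0.14 (SE 0.0579, 95% interval 0.02 to 0.26, edgeR adjusted p = 0.251). It was the 1 member of 6 without overlap, and 4.27% of all genes had none. The Ncf4 call turned on which libraries entered the fit: with the 12 media libraries alone the same 0.14 passed (edgeR adjusted p = 0.00225, background 7.97%), and it passed without WT_Pam3 replicate 5, which is no part of the comparison (edgeR adjusted p = 0.00166, background 8.75%). DESeq2 did not call it, and of the 24 fits with 1 library left out 1 did. The estimate for the p40phox transcript was thus about 1.10-fold in resting KO cells over WT, and whether it passes depends on the fit.

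Ncf1 was 1.05-fold higher in KO_media (log2 fold change 0.07, SE 0.0281, edgeR adjusted p = 0.261), and its ranges, 400 to 418 against 383 to 401 CPM, overlapped at their edges. DESeq2 called it at 0.06 (adjusted p = 0.0355, background 4.46%). For the others the 95% intervals of the log2 difference in media were -0.04 to 0.26 for Cybb, -0.17 to 0.23 for Cyba and -0.03 to 0.17 for Rac2. These bound the change that the data allow, and do not show that the levels are equal.

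After Pam3 no member differed between genotypes past the test. The log2 fold change of KO against WT was -0.02 for Cybb (95% interval -0.17 to 0.14), -0.19 for Cyba (-0.40 to 0.0069), 0.01 for Ncf1 (-0.05 to 0.07), -0.05 for Ncf4 (-0.17 to 0.06), -0.01 for Rac1 (-0.08 to 0.05) and -0.04 for Rac2 (-0.14 to 0.05). The ranges of the 6 and 6 libraries overlapped for every member, where 2.53% of all genes had none. Without WT_Pam3 replicate 5, Cyba came to -0.03 (edgeR adjusted p = 0.762) and Cybb to -0.11 (edgeR adjusted p = 0.106). The 5 remaining WT_Pam3 libraries had 6187 to 6448 CPM of Cybb, all above the highest KO_Pam3 library at 6106 CPM. That lack of overlap was seen for 1 of 6 members and for 5.95% of all genes without that library.

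The test of the interaction asks whether the Pam3 response differed between the genotypes. It called 0 of 6 members by edgeR, where 0.762% of all genes were called, with 1 member, Ncf4, at an unadjusted p under 0.05, which 12.2% of all genes had, and 0 called by DESeq2. The response in KO minus that in WT was -0.13 for Cybb (SE 0.107), -0.22 for Cyba (SE 0.138), -0.06 for Ncf1 (SE 0.0397), -0.20 for Ncf4 (SE 0.0815, edgeR adjusted p = 0.311), 0.01 for Rac1 (SE 0.0424) and -0.11 for Rac2 (SE 0.0674). Without WT_Pam3 replicate 5 the Cybb response was called smaller in KO, at -0.22 (SE 0.0552, edgeR adjusted p = 0.0217), where 3.73% of all genes were called, and Ncf4 was at -0.11 (edgeR adjusted p = 0.155). In that fit Cyba, the largest estimate with all libraries, came to -0.06 (SE 0.0641, edgeR adjusted p = 0.758). The result for Cybb is thus decided by 1 library.

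That library departed from its group along the length of the genes. Against the WT_Pam3 median its log2 deviation was 0.73 for Cyba (1039 exon bases), 0.42 for Ncf4 (2020), 0.30 for Rac2 (3103), 0.06 for Ncf1 (3663), 0.06 for Rac1 (4496) and -0.63 for Cybb (5808). Over 9172 genes, the 1835 with the shortest exons had a median deviation of 0.41 in this library and the 1835 with the longest one of -0.44. The next largest such pair of values in any library was 0.07 and -0.06, in KO_Pam3 replicate 6, which was also low for Cybb (-0.13) and high for Cyba (0.17). Among all libraries the deviations of Cybb and Cyba in log2 CPM from their group means had a Pearson r of -0.87 over 24 libraries and -0.41 without WT_Pam3 replicate 5, as a description. The part of RNA quality in these values was not tested.

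**Figure D4:**
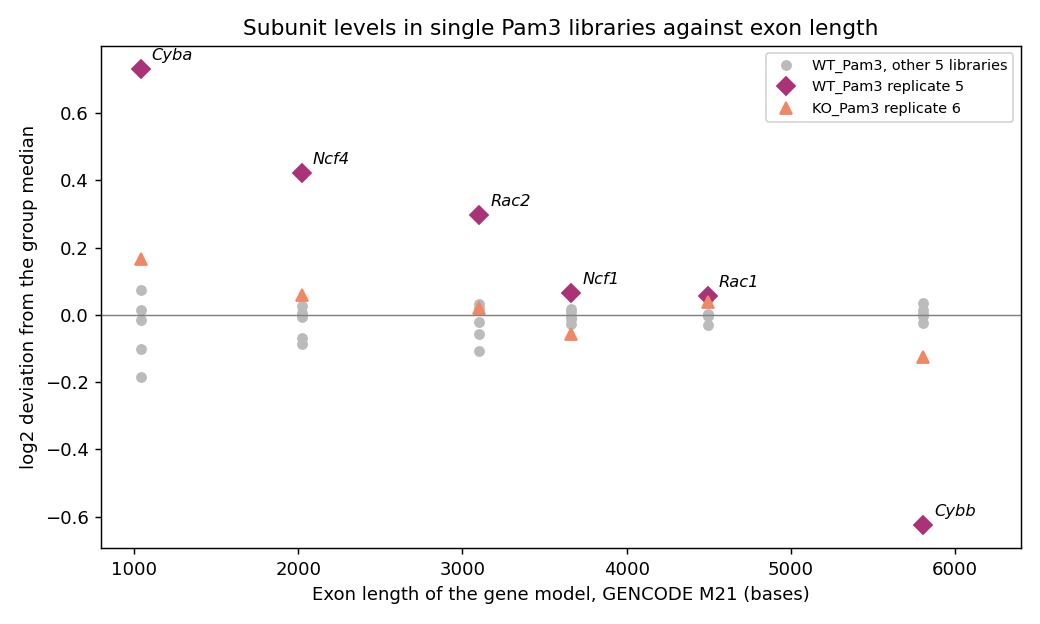
Log2 deviation of each subunit gene from its group median (y axis) against its exon length (x axis) in WT_Pam3 replicate 5 (diamonds), KO_Pam3 replicate 6 (triangles) and the other 5 WT_Pam3 libraries (grey points). In replicate 5 the values run from 0.73 at Cyba, the shortest, to -0.63 at Cybb, the longest.

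Markers of other cell types moved with some of these groups. In media 4 of 11 tested granulocyte markers rose in KO, among them Ngp from 12.3 to 17.9 CPM (log2 fold change 0.54) and S100a9 from 25.1 to 35.4 CPM (0.50). Of all genes 3.03% were called between genotypes in media, in either direction. The granulocyte sum was 217 to 235 CPM in WT_media and 247 to 270 CPM in KO_media, and 588 to 646 CPM in WT_Pam3 and 590 to 665 CPM in KO_Pam3. With Pam3 2 of the 11 rose, Csf3r among them, and 8 fell in each genotype, where 5859 of 14435 genes rose and 6376 fell in WT. Of 8 stromal and endothelial markers 5 rose in KO_media, and their sum was 37.4 to 47.6 CPM in WT_media, 48.9 to 91.6 in KO_media, 34.5 to 46.6 in WT_Pam3 and 45.7 to 69.3 in KO_Pam3. The lymphocyte markers summed to 15.0 to 50.4 CPM, with Cd3e at 0 counts in 12 libraries, and by edgeR 0 of 7 tested were called in media and 1, Cd4, was lower in KO after Pam3 (-0.40). After Pam3 edgeR called 2 of 11 granulocyte markers and 2 of 8 stromal and endothelial markers higher in KO, and 0 of either lower. Of all genes 4.06% were called there, and the KO against WT estimates were -0.05 for Ncf4 and 0.01 for Ncf1. The granulocyte and stromal sums in media moved the same way as the Ncf4 and Ncf1 estimates in media, and neutrophils are known to be rich in oxidase transcripts. Their part in those estimates was not tested.

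Cybc1, the chaperone that cytochrome b558 needs in the endoplasmic reticulum, was at 87.0 to 89.4 CPM in the group means and was not called in any of the 5 comparisons with TMM, though with library totals alone it was lower after Pam3, at -0.53 in WT and -0.50 in KO.

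Of the 12 other components and relatives of the oxidase, 5 were tested, and with Pam3 2 rose and 1 fell in each genotype. For this list and those below, the background with Pam3 was 5859 of 14435 genes higher and 6376 lower in WT, and 5803 and 6470 in KO. Between genotypes 3.03% of all genes were called in media, 4.06% after Pam3 and 0.762% in the interaction. Nox1, the homologue of Cybb best known from colon epithelium, had 0.174 ± 0.0787 CPM in resting WT cells and 43.2 ± 7.02 CPM in WT_Pam3 (log2 fold change 7.91, SE 0.170, edgeR adjusted p = 6.85e-25). In KO it was at 0.167 ± 0.0866 and 50.4 ± 4.81 CPM (8.22, SE 0.171, edgeR adjusted p = 3.31e-25). The media values rest on 46 and 42 reads over 6 libraries each. In RPKM, Nox1 after Pam3 stood at 15.3 ± 2.51 in WT, under Rac1. Its organiser Noxo1 fell, by 1.43 in WT, from 2.73 to 1.01 CPM, and by 1.28 in KO, from 2.66 to 1.09 CPM. Rac3, the Rac best known from brain, rose by 1.21 and 1.24 from 4.48 and 4.02 CPM. With library totals alone 2 of the 5 rose and 3 fell.

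Among 16 genes that load, unload or hold Rac, 8 rose and 7 fell with Pam3 in WT and 9 rose and 7 fell in KO (7 and 8 in both with library totals alone). The exchange factor Vav1 rose by 1.39 on the log2 scale in WT and 1.36 in KO, and Abr, a GTPase-activating protein of Rac, rose by 1.57 and 1.51. The exchange factor Tiam1 fell by 2.55 and 2.48, and Arhgap25, which also switches Rac off, fell by 2.52 and 2.50, from 207 to 36.02 CPM in WT. The list held no single direction, and its median was 0.34 in WT and 0.35 in KO. With all 24 libraries and TMM, edgeR called 0 of the 16 between genotypes or in the interaction. Other fits did call some, named after their values were seen. Tiam1 (0.24), Swap70 (0.12), Arhgdib (0.09) and Vav1 (0.09) were higher in KO_media with the 12 media libraries alone, and the same 4 were without WT_Pam3 replicate 5. DESeq2 called Tiam1 and Swap70 in media and Tiam1 after Pam3, and library totals alone called Swap70 at both treatments. Without WT_Pam3 replicate 5 Dock2 was lower in KO after Pam3 (-0.17) and in the interaction (-0.17).

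Of 15 kinases and lipid enzymes tied to assembly of the complex, 8 rose and 5 fell in each genotype (7 and 8 with library totals alone). Prkcd, a kinase of p47phox, rose by 1.96 in WT, from 343 to 1338 CPM, and by 2.07 in KO, from 345 to 1452 CPM. Syk, the kinase below Fc and lectin receptors, rose by 2.43 and 2.46, Pik3r5, a regulatory subunit of PI3K gamma, by 2.49 and 2.40, and the phospholipase Pla2g4a by 3.54 and 3.73. Between genotypes 1 of 15 was called in media, Pak1, another kinase of p47phox, at 0.20 (edgeR adjusted p = 0.0496, 40.8 against 35.6 CPM), a call kept in 4 of 24 fits with 1 library left out. After Pam3 1 of 15 was called, Prkcd at 0.12 (edgeR adjusted p = 0.0159), with all KO libraries (1390 to 1489 CPM) above all WT libraries (1287 to 1382 CPM); with the 12 libraries of the comparison alone its adjusted p was 0.0801.

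Of 9 transcription factors of phagocyte genes, 6 rose and 3 fell with Pam3 in each genotype, also with library totals alone. Nfkb1 rose by 3.08 in WT and 3.04 in KO, Irf1 by 3.43 and 2.90, and Rela by 1.67 and 1.52. Spi1, which encodes PU.1, rose by 1.76 and 1.60, from 281 to 949 CPM in WT. Irf8, a factor known to bind the Cybb promoter together with PU.1, went the other way and fell by 1.98 and 2.03, from 376 to 94.98 CPM in WT. After Pam3 Irf1 was lower in KO by edgeR (-0.33, adjusted p = 0.00213, 729 ± 42.8 against 914 ± 70.8 CPM), and its interaction was -0.53 (SE 0.0894, edgeR adjusted p = 0.00904). The promoter matches shown above were not related to these changes by any test.

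Of 15 tested genes that handle superoxide or balance its charge, 8 rose and 5 fell in WT and 8 rose and 6 fell in KO (8 and 7 in both with library totals alone). Sod2, the mitochondrial superoxide dismutase, rose by 5.69 in WT, from 45.7 ± 0.395 to 2356 ± 219 CPM, and by 5.60 in KO, from 45.7 ± 2.99 to 2224 ± 73.0 CPM. Txnrd1 rose by 3.49 and 3.58, and Prdx5 by 3.58 and 3.45. Hvcn1, the proton channel that offsets the charge the oxidase moves, rose by 1.38 in WT and 1.25 in KO, and after Pam3 it was lower in KO (-0.25, edgeR adjusted p = 0.000543), with every KO library (321 to 346 CPM) under every WT library (348 to 424 CPM).

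Nrros, an endoplasmic reticulum protein known to lower the amount of gp91phox, fell with Pam3 by 0.93 in WT and 1.17 in KO. After Pam3 it was at 193 ± 8.56 CPM in KO and 221 ± 9.64 in WT (-0.19, edgeR adjusted p = 0.00202), with no overlap, and its interaction was -0.25 (SE 0.0518, edgeR adjusted p = 0.0219). With 1 library left out the first call held in 24 of 24 fits and the interaction in 15 of 24, and both were lost with no filter, the first also with the 12 libraries of the comparison alone. At the same treatment 2 low genes of the list were higher in KO, Aqp9 (0.47, 5.11 against 3.68 CPM) and Sod3 (0.64, 4.55 against 2.94 CPM), the latter called in 19 of 24 fits with 1 library left out. In media 0 of 15 were called by edgeR with all 24 libraries, and 0 by DESeq2. With the 12 media libraries alone edgeR called 3 of 15 in media, and the same 3 without WT_Pam3 replicate 5: Prdx2 (0.10) and Sod1 (0.14) higher in KO and Hvcn1 (-0.12) lower, of which the first 2 were named after their values were seen.

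Of 9 genes that supply NADPH, 4 rose and 3 fell in WT and 4 rose and 2 fell in KO (3 and 6 in both with library totals alone). Pgd of the pentose phosphate pathway rose by 1.20 and 1.14, and Tkt by 0.80 and 0.69. Idh1, the cytosolic isocitrate dehydrogenase, fell by 1.34 in both. Me1 rose by 2.74 and 2.37 from under 1 CPM. The medians of the list were 0.09 in WT and -0.04 in KO, close to those of all genes, and by edgeR with all 24 libraries 0 of the 9 were called between genotypes. With the 12 media libraries alone 1 was, Taldo1 at 0.10, named after its value was seen.

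**Figure D5:**
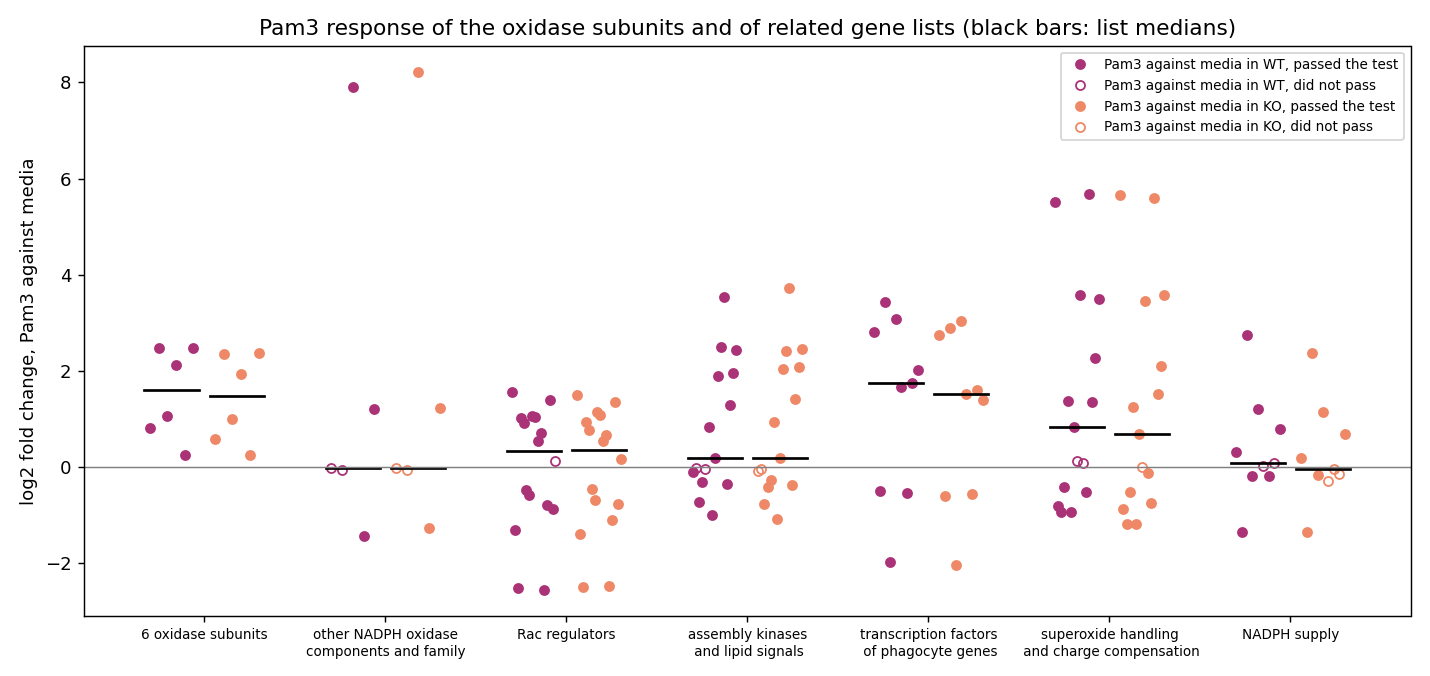
Log2 fold change of Pam3 against media for each tested gene of the oxidase subunits and the 6 related lists, in WT and KO (filled points passed the test, open points did not), with black bars at list medians. The 6 subunits all lie above 0, while the related lists hold genes on both sides.

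By shape over the 24 libraries, the genes nearest to each member among 9173 with a mean of at least 5 CPM were found by Pearson r of log2 CPM. They were Ikzf1 and Sppl2a for Cybb (r = 0.9991 for both), Arf5 and Map2k2 for Cyba (0.992 and 0.991), Socs3 and Tmem176a for Ncf1 (0.9987 for both), Relb and Lrrc25 for Ncf4 (0.9993 and 0.9992), Brd7 and Vamp3 for Rac1 (0.984 and 0.983) and Ebi3 and Cd82 for Rac2 (0.9996 for both). Libraries share a treatment and a depth, so such values follow mainly from the 2 levels of treatment. Between members r was highest for Ncf4 with Rac2 (0.998), neighbours on chromosome 15, and nearly as high for Ncf1 with Rac2 (0.997), which lie on different chromosomes. It was lowest for Cyba with Cybb (0.847), the pair that form cytochrome b558. That low value rests on WT_Pam3 replicate 5: without it r for Cyba with Cybb was 0.964, and the lowest was Cyba with Rac1 at 0.919.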

How the data were processed

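Per the labels' protocols, column-purified, DNase-treated RNA gave TruSeq v2 libraries, a kit that does not mark strand, read as single-end 50 bp reads. The submitters' processing notes name GSNAP and GRCm38, without versions. The deposited counts are reads aligning uniquely to each gene model, per the file headers, with no normalization. The RPKM column, which its header calls adjusted by size factor, is as the authors deposited it and served only for levels between genes. Identifiers were matched to GENCODE M21 symbols for 52489 of 52636 models, and the rest held 0.00387% of reads.

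Counts of all 24 libraries entered 1 fit in edgeR 4.0.16 (R 4.3.3): TMM, filterByExpr, quasi-likelihood test, Benjamini-Hochberg adjustment over 14435 genes. CPM use TMM-scaled totals. Errors are SD over 6 libraries. The 95% intervals take the SE and the t quantile of the fit. The script was tested on simulated data. Alternatives were DESeq2 1.42.0, other scalings and filters, 12-library fits and leaving out each library.

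The members and gene lists were chosen with earlier results of these data known. Named were the members, Ninj1 and Xist, up to 4 called genes of a list with the smallest adjusted p, and the 2 genes nearest to each member. Cybc1, Spi1, Gtf2ird2, Daglb and the markers Csf3r, Ly6g, Ngp, S100a9, Cd3e and Cd4 were named after their values were seen. Some genes under this rule are not reported here.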

Additional observations from a re-analysis of the deposited data

Results flagged for a closer look

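In 4 of 24 groups of 6 libraries, a single library lay so far from the other 5 that Dixon's test at the 95% level set it apart, and each time it was WT_Pam3 replicate 5. Chance sets apart about 1 in 20 separate groups, but these 4 share 1 library and are not separate, so that rate cannot be applied to them. Cybb was lowest there at 4075 CPM, against 6187 to 6448 CPM in the other 5 libraries. Cyba was highest at 1640 CPM against 870 to 1040, Ncf4 at 532 CPM against 374 to 405, and Rac2 at 1964 CPM against 1484 to 1635. Ncf1 (854 CPM) and Rac1 (238 CPM) were also the highest of their group in this library, within Dixon's limit.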

How the results depend on the processing

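Of 720 member fold changes with 1 library left out, 699 kept their direction and side of the threshold, as did 163 of 174 under the other settings. The number of members called in media was 0, and 1 with DESeq2, with 12 libraries, and over the left-out libraries 0 to 1. For the interaction it was 0 to 1. Both values of 1 came without WT_Pam3 replicate 5. Reversed signs lay near 0 in KO against WT after Pam3: Cybb 0.031, Rac1 0.034 and Rac2 0.0039 with library totals alone, Cybb 0.011 and Rac1 0.016 with no filter, and Rac1 0.0032 with at least 1 CPM in 6 libraries. With 1 library left out they ranged from -0.11 to 0.0069 for Cybb, -0.024 to 0.0032 for Rac1, -0.072 to 0.014 for Rac2 and -0.082 to 0.030 for Ncf4, and the Rac1 interaction from -0.0027 to 0.044. With Pam3, library totals alone gave Rac1 -0.27 in WT and -0.23 in KO, and Cyba 0.11 in KO. All genes called in the interaction numbered 25 higher and 85 lower, 102 and 442 without WT_Pam3 replicate 5, and 8 and 20 without WT_media replicate 3 or replicate 5. In media they were 277 and 161, and 658 and 616 without WT_Pam3 replicate 5. The cause was not tested. No paired analysis was possible because the labels carry no replicate numbers.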
